A study of Mus musculus with 23 samples.

Results

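The marker genes of macrophages and other leukocytes were followed in the ventricles of mice that overexpress the mineralocorticoid receptor in cardiomyocytes. The set was a named list of 38 genes, taken by platform gene symbol from 21892 named genes on the array, and all 38 were measured. It held 16 macrophage genes, 8 genes shared by myeloid cells or by leukocytes at large, 3 genes of MHC class II antigen presentation, 4 T cell genes, 3 B cell genes, 2 genes of cytotoxic lymphocytes and 2 genes of neutrophils. The mice were male. Non-transgenic controls (Ctrl) were untreated (n = 5) or given aldosterone, the ligand of the receptor (n = 5), and transgenic MR-Cardio mice were untreated (n = 7) or given aldosterone (n = 6). The labels give a treatment duration of 7 days for every group, the untreated ones included, and they give no promoter, founder line, age or dose. Each array carried ventricular RNA of 1 mouse in Cy5 against a common reference in Cy3, pooled from spleen, kidney, heart, brain and liver.

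Macrophages are resident in the healthy heart, where they clear dying cells and debris, and more are recruited from blood monocytes after injury. Scavenger receptors, Fc receptors and complement proteins carry out that clearance, and MHC class II molecules display the digested peptides to CD4+ T cells. Aldosterone acting through the mineralocorticoid receptor is known for promoting inflammation and fibrosis in the heart.

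The values are log2 ratios of heart to pool, so that 0 means equal signal in both, and a ratio is a level relative to the pool and not an amount. The pool contained spleen, which is rich in leukocytes, and this lowers the ratio of leukocyte genes. Nr3c2, which encodes the mineralocorticoid receptor, had a mean log2 ratio of 0.43 ± 0.14 (SD, n = 5) in untreated controls and 3.21 ± 0.72 (SD, n = 7) in untreated MR-Cardio mice. With aldosterone the means were 0.22 ± 0.17 (SD, n = 5) in controls and 3.97 ± 0.85 (SD, n = 6) in MR-Cardio mice, and the genotypes did not overlap. Cardiomyocyte genes had a mean log2 ratio between 1.84 and 2.04 in all 4 groups, as labelled for heart. The 10 spike-in probes measure RNAs of known amount added to both channels. Their ratios on each array were fitted against their mean ratios over all arrays. The slope was 0.964 to 0.982 on control arrays and 1.003 to 1.029 on MR-Cardio arrays. These slopes are relative to the average array and not to the known amounts, so they do not show which genotype had the truer ratios. A steeper slope means wider ratios, and the slopes of the genotypes did not overlap. The calls of lower genes with very low ratios are therefore given below with the slope divided out as well. The mean ratios of the spike-in probes ran from −3.91 to 1.96. For genes below that range the division carries the slope beyond the ratios on which it was fitted.

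Most of the genes were far lower in heart than in the pool. The mean ratio over the 23 mice was below 0 for 35 of the 38 genes, against 48.1% of all named genes, and 27 were below 0 on every array. The 3 genes above 0 were Cd163, the scavenger receptor for haemoglobin-haptoglobin complexes, Mrc1, the mannose receptor, and Lyz2, the lysozyme of mouse macrophages. Cd163 stood alone with a mean log2 ratio of 2.78, which is 6.85-fold above the pool, followed by Mrc1 at 0.32 and Lyz2 at 0.06. Both Cd163 and Mrc1 are known as markers of resident tissue macrophages. Next came the Fc receptor Fcgr3 at −0.02, Lyz1 at −0.05, the T cell coreceptor Cd4 at −0.09 and the high-affinity IgG receptor Fcgr1 at −0.26. The level of Cd4 is the mean of 2 probes that lay far apart, at 0.85 and −1.03.

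Other macrophage genes lay lower. The receptor for macrophage colony-stimulating factor, Csf1r, had a mean log2 ratio of −0.96 over 3 probes at 0.26, −1.48 and −1.66. The F4/80 antigen Adgre1, the scavenger receptor Msr1, the lysosomal protein Cd68 and the complement genes C1qa, C1qb and C1qc lay between −1.27 and −1.04. Ptprc, which encodes the pan-leukocyte phosphatase CD45, had −2.17. The lowest were Cd79b, the B cell receptor component, at −5.33 (40.2-fold below the pool), Marco, a scavenger receptor of spleen marginal zone macrophages, at −6.26 (76.6-fold below) and Ms4a1, the B cell protein CD20, at −6.44 (86.9-fold below). The neutrophil calcium-binding proteins S100a9 and S100a8 followed at −6.55 and −7.94, the latter 245-fold below the pool. In the plot of mean levels the cell types are interleaved, with Cd3e above the macrophage gene Cd14, and Cd79a above the MHC class II genes Cd74 and H2-Aa.

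**Figure D1:**
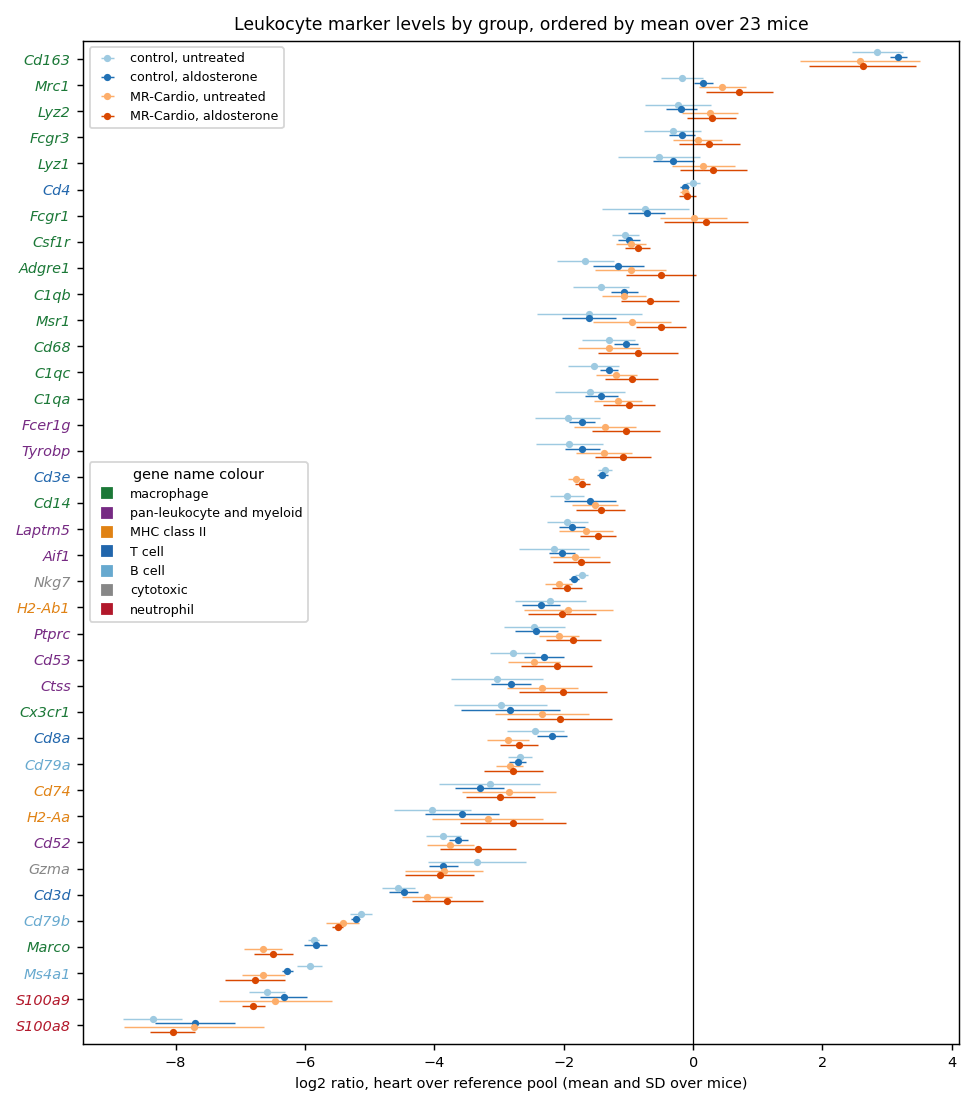
Mean log2 ratio of heart to reference pool (x axis) for each of the 38 genes (y axis, ordered by their mean over 23 mice), with bars for ± SD over the mice of each of the 4 groups and a line at 0, where heart and pool are equal. Cd163 lies far to the right at a mean of 2.78, and Cd79b, Marco, Ms4a1, S100a9 and S100a8 lie below −5.

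Start-site sequences of the genes were read for the motif that many myeloid promoters share. The transcription factor PU.1, central to myeloid development, binds a purine-rich core, and GAGGAAG was searched on both strands from 250 bases before to 50 bases after the start in RefSeq's GRCm38.p6 annotation. Windows were found for 26 of the 38 genes. The motif was in 9 of the 26, against 13.6% of all 32851 windows: in Mrc1, Fcgr1, Fcgr3, C1qc, Marco, Cd53, Laptm5, Ctss and S100a8. Of the macrophage and pan-leukocyte genes 8 of 17 held it, and of the others 1 of 9. Shown here are the 80 bases around the start of 4 genes that were higher in MR-Cardio hearts (below), from 60 bases before the start, 5′ to 3′ on the gene's own strand. Capitals mark CTTCCTC, which is GAGGAAG on the opposite strand. The H2-Aa window is shown for a different motif, ATTGG, the inverted CCAAT box of MHC class II promoters. It is common in all windows at 37.4%, searched on both strands, and was found in 10 of the 26. Of these, H2-Aa was the only MHC class II gene.
Mrc1, chr2:14229354-14229433, plus strand: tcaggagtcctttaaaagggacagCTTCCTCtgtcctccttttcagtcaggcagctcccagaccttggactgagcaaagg
Ctss, chr3:95526726-95526805, plus strand: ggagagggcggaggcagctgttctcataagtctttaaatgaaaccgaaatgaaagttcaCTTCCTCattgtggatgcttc
Fcgr1, chr3:96293950-96294029, minus strand: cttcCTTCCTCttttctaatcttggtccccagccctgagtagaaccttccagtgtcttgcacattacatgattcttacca
Laptm5, chr4:130913256-130913335, plus strand: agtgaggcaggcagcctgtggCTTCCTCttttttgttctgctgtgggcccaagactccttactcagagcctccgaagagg
H2-Aa, chr17:34287804-34287883, minus strand: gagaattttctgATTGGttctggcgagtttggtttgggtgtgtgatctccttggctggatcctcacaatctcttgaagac
Counted from 0 at the start, the first capital lies at −36 in Mrc1, −1 in Ctss, −56 in Fcgr1, −39 in Laptm5 and −48 in H2-Aa. A match describes the letters only.

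The first comparison of the study set untreated MR-Cardio mice against untreated controls. None of the 38 genes was higher past the threshold, which was an adjusted p under 0.05 in limma with Benjamini-Hochberg adjustment over all genes, and 4 were lower: Cd3e, Marco, Ms4a1 and Nkg7. Of all named genes 13.6% passed in this comparison, 5.79% higher and 7.82% lower. At an unadjusted p under 0.05, 9 of the 38 were higher and 6 lower, against 27.6% of all genes in either direction. In Marco, Cd3e and Ms4a1 every MR-Cardio mouse was below every control, and in none of the 38 was every one above, where 6.97% of all genes had such a separation in either direction. The median log2 difference was 0.34 over the 38 genes and −0.01 over all genes. It was 0.44 over the 16 macrophage genes, 14 of which had a positive difference, and 0.36 over the 8 pan-leukocyte genes, all positive.

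The second genotype comparison, of the 2 aldosterone groups, gave 3 higher and 2 lower genes of the 38, against 25.1% of all genes, 10.7% higher and 14.4% lower. The higher ones were the macrophage receptors Msr1 and Fcgr1 and the CD3 delta chain Cd3d, and the lower ones Marco and Cd3e. With the genotype difference taken as the mean of the untreated and aldosterone comparisons, 14 were higher and 6 lower, against 35.1% of all genes, 15.7% higher and 19.3% lower. By list, 7 of the 16 macrophage genes were higher and 1 was lower. Of the 8 pan-leukocyte genes 5 were higher, and 1 of the 3 MHC class II genes was higher. In the 4 T cell genes 1 was higher and 2 lower, in the 3 B cell genes 2 were lower, and 1 of the 2 cytotoxic genes was lower. Neither neutrophil gene passed. The median log2 difference was 0.42 for the macrophage genes, 0.41 for the pan-leukocyte genes, 0.31 for the MHC class II genes, −0.21 for the T cell genes and −0.28 for the B cell genes, beside −0.02 for all genes. In RNA of whole ventricle, fewer cells of a type and less RNA per cell cannot be told apart.

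The higher count depended on the arrays used. The spike-in offset of an array is its mean spike-in ratio less the mean over all arrays. Without the 5 MR-Cardio arrays with an offset under −0.3, 4 of the 38 were higher and 5 lower. That alternative was chosen after seeing the data. With the spike-in slope divided out 19 were higher and 3 lower, and with quantile normalization 13 were higher and 3 lower. The share of all genes called at these settings is not given, and fitting fewer arrays can lower the calls of any gene. Fibroblast genes moved with genotype as well: their mean log2 ratio was 1.09 ± 0.26 (SD, n = 5) in untreated controls, 1.46 ± 0.21 (SD, n = 5) in controls with aldosterone, 2.02 ± 0.82 (SD, n = 7) in untreated MR-Cardio mice and 2.39 ± 0.67 (SD, n = 6) in MR-Cardio mice with aldosterone. The part of the fibroblast shift in the leukocyte values was not tested.

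**Figure D2:**
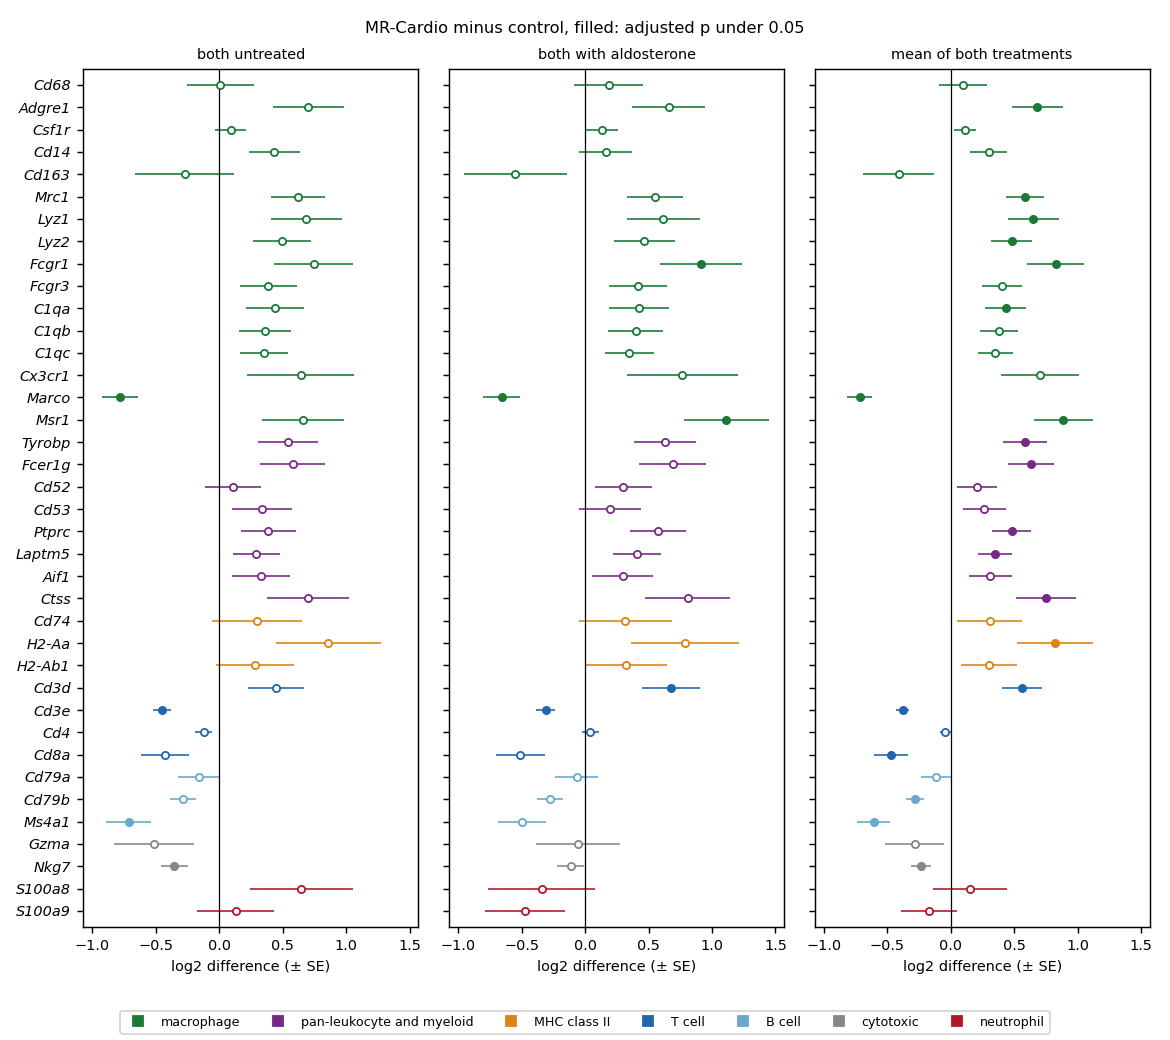
Log2 difference between MR-Cardio and control mice (x axis, ± SE from limma) for the 38 genes (y axis, coloured by cell type list), with filled points for an adjusted p under 0.05, in untreated mice, in aldosterone-treated mice and for the mean of both. Most macrophage and pan-leukocyte genes lie to the right of 0, Marco and the lymphocyte genes Cd3e, Cd8a, Cd79b, Ms4a1 and Nkg7 lie to the left, and 20 points are filled in the panel for the mean.

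Among the macrophage receptors, Mrc1 was higher in MR-Cardio hearts. Its log2 ratios were −0.37, 0.27, −0.39, −0.46 and 0.10 in the 5 untreated controls and 0.14, 0.36, −0.03, 0.26 and 0.07 in the 5 controls with aldosterone. In untreated MR-Cardio mice they ran from −0.10 over a median of 0.39 to 0.94, and in those with aldosterone from 0.29 over 0.55 to 1.72. Of the 13 MR-Cardio mice 9 lay above every control, and none below every control. The mean genotype difference was 0.59 ± 0.15 on the log2 scale (SE, 1.5-fold, limma adjusted p = 0.00463), and it passed in each of the 36 alternatives. In untreated mice alone it was 0.62 ± 0.21 (SE), with an adjusted p = 0.0543 in limma.

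Msr1, a scavenger receptor for modified lipoproteins, had the largest rise among the called macrophage genes. Its log2 ratios were −1.52, −0.65, −1.70, −2.87 and −1.27 in untreated controls and −2.25, −1.22, −1.26, −1.61 and −1.71 in controls with aldosterone. In MR-Cardio mice they ran from −1.81 over a median of −0.93 to 0.04 untreated, and from −1.01 over −0.56 to 0.14 with aldosterone. With aldosterone, each of the 6 MR-Cardio mice was above each of the 5 controls, while the untreated genotypes overlapped. Msr1 was the only one of the 38 genes with such a separation upward in the aldosterone groups, where 6.26% of all genes had it. Downward, Marco, Cd3e and Cd79b were separated, as were 9.82% of all genes, and 16.1% were separated in either direction. The difference there was 1.11 ± 0.33 (SE, 2.16-fold, limma adjusted p = 0.0177), and the mean over both treatments was 0.89 ± 0.23 (SE, 1.85-fold, limma adjusted p = 0.00504). In the aldosterone groups the call was lost in 3 of 36 alternatives, among them the fit without aldosterone-treated control mouse 1.

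Fcgr1 encodes the high-affinity receptor for IgG, a marker that separates macrophages from dendritic cells. Its log2 ratios were −1.40, 0.33, −0.76, −1.24 and −0.61 in untreated controls and −1.22, −0.59, −0.71, −0.57 and −0.50 in controls with aldosterone. In MR-Cardio mice they ran from −0.79 over a median of 0.25 to 0.51 untreated, and from −0.56 over 0.09 to 1.40 with aldosterone. Untreated control mouse 2 was the highest of the 10 controls and lay inside the range of the MR-Cardio mice. The mean genotype difference was 0.83 ± 0.22 (SE, 1.78-fold, limma adjusted p = 0.00636). With aldosterone it was 0.91 ± 0.32 (SE, 1.88-fold, limma adjusted p = 0.0422), a call lost in 15 of 37 alternatives.

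Adgre1, the F4/80 antigen by which mouse macrophages are commonly stained, was lowest in untreated controls. They had log2 ratios of −1.55, −1.03, −1.88, −2.23 and −1.64, and the controls with aldosterone had −1.44, −0.76, −1.47, −0.70 and −1.44. Untreated MR-Cardio mice ran from −1.66 over a median of −0.95 to −0.14 and those with aldosterone from −1.15 over −0.52 to 0.40. Of the 13 MR-Cardio mice 6 were above every control, and the rest lay among the controls. The mean genotype difference was 0.68 ± 0.20 (SE, 1.60-fold, limma adjusted p = 0.0111).

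The lysozyme genes Lyz1 and Lyz2, whose products digest bacterial cell walls, were higher by 0.65 ± 0.20 (SE, limma adjusted p = 0.0155) and 0.48 ± 0.17 (SE, limma adjusted p = 0.0278) in the mean genotype comparison. They are neighbouring near-identical paralogs with 1 probe each, so their signals may not be separate. Lyz1 had a group mean of −0.53 ± 0.63 (SD, n = 5) in untreated controls and 0.16 ± 0.48 (SD, n = 7) in untreated MR-Cardio mice, with overlap between the groups.

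C1qa, a chain of the complement component that starts the classical pathway, was higher by 0.43 ± 0.16 (SE, 1.35-fold, limma adjusted p = 0.045), and this call was lost in 22 of 35 alternatives. The other chains of the same protein missed the threshold at nearly the same size. C1qb differed by 0.38 with an adjusted p = 0.0542 in limma, and C1qc by 0.35 with an adjusted p = 0.0508. Fcgr3, a low-affinity IgG receptor, differed by 0.40 with an adjusted p = 0.0554, and Cx3cr1, the fractalkine receptor, by 0.70 with an adjusted p = 0.0786.

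Some macrophage markers in wide use did not pass. Cd68 differed by 0.10 in the mean genotype comparison (95% interval −0.30 to 0.49), with an adjusted p = 0.732 in limma. Its group means were −1.31 ± 0.41 (SD, n = 5), −1.04 ± 0.18 (SD, n = 5), −1.30 ± 0.48 (SD, n = 7) and −0.85 ± 0.62 (SD, n = 6) in untreated controls, controls with aldosterone, untreated MR-Cardio mice and MR-Cardio mice with aldosterone. Its 2 probes disagreed in sign, with −0.05 and 0.24. Csf1r differed by 0.11 with an adjusted p = 0.346, and its 3 probes ran from −0.17 to 0.34. Cd14, the lipopolysaccharide coreceptor, differed by 0.30 with an adjusted p = 0.117. These values set no order of the markers by response, since the intervals of these genes overlap those of the called ones.

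Cd163 went the other way without passing. Its log2 ratios were 3.07, 3.30, 2.81, 2.83 and 2.23 in untreated controls and 3.15, 3.37, 3.21, 3.06 and 3.05 in controls with aldosterone. Untreated MR-Cardio mice ran from 0.69 over a median of 2.76 to 3.66, and those with aldosterone from 1.41 over 2.90 to 3.47. The MR-Cardio mice were spread far more widely than the controls, with SDs of 0.92 and 0.83 beside 0.40 and 0.13, and the low values came from MR-Cardio untreated mouse 3 and aldosterone mice 2 and 3. The mean difference was −0.41 ± 0.28 (SE), with an adjusted p = 0.279 in limma.

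Marco was the macrophage gene that fell. Its log2 ratios were −5.79, −5.77, −5.99, −5.89 and −5.90 in untreated controls and −5.54, −5.90, −6.02, −5.89 and −5.82 in controls with aldosterone. In MR-Cardio mice they ran from −7.09 over a median of −6.65 to −6.22 untreated, and from −6.87 over −6.55 to −6.07 with aldosterone. All 13 MR-Cardio mice were below all 10 controls, a separation that Marco shared with Cd3e among the 38 genes and that 3.24% of all genes showed in either direction and 2.06% downward. The difference was −0.78 ± 0.14 in untreated mice (SE, 1.72-fold lower, limma adjusted p = 0.000822) and −0.72 ± 0.10 for the mean (SE, 1.65-fold lower, limma adjusted p = 1.36e-05). With the spike-in slope divided out the mean difference of Marco was −0.43, and with quantile normalization it was −0.22 and no longer passed. Marco lies below the range of the spike-in ratios, as do Ms4a1 and Cd79b, so their values with the slope divided out are extrapolated. Liver genes, another group with very low ratios, had a mean of −4.66 ± 0.09 (SD, n = 5) in untreated controls and −5.64 ± 0.14 (SD, n = 7) in untreated MR-Cardio mice, and 10 of 10 were lower in that comparison. Slope and genotype cannot be told apart on these arrays.

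Of the 8 pan-leukocyte and myeloid genes, the 5 that passed in the mean genotype comparison, where 15.7% of all genes were higher, did not pass in either treatment alone. Tyrobp and Fcer1g encode the ITAM adaptors through which Fc receptors and related receptors signal. Tyrobp had log2 ratios of −2.12, −1.13, −1.93, −2.55 and −1.85 in untreated controls and −1.83, −1.38, −2.0, −1.48 and −1.85 in controls with aldosterone. In MR-Cardio mice it ran from −2.25 over a median of −1.26 to −1.0 untreated and from −1.45 over −1.23 to −0.28 with aldosterone. Untreated control mouse 2 and untreated MR-Cardio mouse 2 kept the untreated groups overlapping. The mean difference of Tyrobp was 0.59 ± 0.17 (SE, 1.5-fold, limma adjusted p = 0.011).

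Fcer1g differed by 0.63 ± 0.18 (SE, 1.55-fold, limma adjusted p = 0.0102), with group means of −1.94 ± 0.50, −1.72 ± 0.20, −1.37 ± 0.48 and −1.03 ± 0.53 (SD; n = 5, 5, 7 and 6) in the order used for Cd68. Ctss, the cysteine protease cathepsin S that trims the class II invariant chain, differed by 0.75 ± 0.23 (SE, 1.68-fold, limma adjusted p = 0.016). Ptprc, the CD45 gene, differed by 0.48 ± 0.16 (SE, 1.39-fold, limma adjusted p = 0.0201). Laptm5, a lysosomal membrane protein of blood cells, differed by 0.35 ± 0.13 (SE, 1.27-fold, limma adjusted p = 0.0442), a call lost in 22 of 35 alternatives. The genes that did not pass were Aif1, the Iba1 protein (0.31, adjusted p = 0.157), and the surface proteins Cd53 (0.26, adjusted p = 0.247) and Cd52 (0.21, adjusted p = 0.341). Ptprc is carried by leukocytes in general, so its difference names no cell type.

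In the MHC class II group, only the alpha chain gene H2-Aa passed. Its log2 ratios were −3.96, −3.67, −4.38, −4.84 and −3.32 in untreated controls and −4.16, −2.73, −4.04, −3.55 and −3.36 in controls with aldosterone. Untreated MR-Cardio mice ran from −4.34 over a median of −2.97 to −2.08, and those with aldosterone from −4.29 over −2.70 to −2.02. Of the 13 MR-Cardio mice 7 were above every control, while untreated mice 2 and 7 and aldosterone mouse 2 had −4.31, −4.34 and −4.29. The mean difference was 0.82 ± 0.30 (SE, 1.77-fold, limma adjusted p = 0.0358), lost in 14 of 35 alternatives. The partner beta chain H2-Ab1 differed by 0.30 with an adjusted p = 0.312, and the invariant chain Cd74 by 0.31 with an adjusted p = 0.379.

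The T cell genes moved in opposite directions. Cd3d and Cd3e are neighbouring genes for chains of the same T cell receptor complex. Cd3d had log2 ratios of −4.43, −4.25, −4.76, −4.87 and −4.48 in untreated controls and −4.77, −4.18, −4.56, −4.54 and −4.33 in controls with aldosterone. In MR-Cardio mice it ran from −4.59 over a median of −4.02 to −3.63 untreated and from −4.72 over −3.53 to −3.38 with aldosterone. Of the 13 MR-Cardio mice 8 were above every control. Its mean difference was 0.56 ± 0.16 (SE, 1.48-fold higher, limma adjusted p = 0.00829), past the threshold in each of 35 alternatives.

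Cd3e had log2 ratios of −1.37, −1.44, −1.43, −1.40 and −1.17 in untreated controls and −1.35, −1.53, −1.45, −1.34 and −1.34 in controls with aldosterone. In MR-Cardio mice it ran from −1.94 over a median of −1.81 to −1.63 untreated and from −1.88 over −1.67 to −1.59 with aldosterone. Every MR-Cardio mouse was below every control. The mean difference was −0.38 ± 0.05 (SE, 1.30-fold lower, limma adjusted p = 8.05e-06), and it passed in each of the 35 alternatives, both changes of scaling included. The Cd3e probe thus fell while the Cd3d probe rose in the same hearts, and within groups the genes did not vary together (below). Each of these genes has 1 probe. The gene of a further CD3 chain, Cd3g, kept for context, had group means of −3.94 in untreated controls and −3.91 in controls with aldosterone. In MR-Cardio mice its means were −3.64 untreated and −3.61 with aldosterone, and its mean genotype difference did not pass.

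Cd8a, the coreceptor of cytotoxic T cells, was lower by 0.47 ± 0.13 on the log2 scale (SE, 1.39-fold, limma adjusted p = 0.00914), where the mean of its 2 probes was used and the probes gave −0.76 and −0.18. Cd4 differed by −0.04 with an adjusted p = 0.525, and its 2 probes disagreed in sign, at −0.11 and 0.03. No single direction describes the T cell list.

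Among the B cell genes, Ms4a1 had log2 ratios of −5.73, −5.86, −5.82, −6.23 and −6.00 in untreated controls and −6.19, −6.18, −6.38, −6.28 and −6.35 in controls with aldosterone. In MR-Cardio mice it ran from −7.34 over a median of −6.57 to −6.36 untreated and from −7.22 over −6.89 to −5.90 with aldosterone. Untreated MR-Cardio mice were all below the untreated controls, as for Marco and Cd3e, a separation downward that 4.02% of all genes showed. The untreated difference was −0.72 ± 0.18 (SE, 1.64-fold lower, limma adjusted p = 0.011) and the mean difference −0.61 ± 0.13 (SE, 1.52-fold lower, limma adjusted p = 0.00101). With the slope divided out the mean difference of Ms4a1 was −0.31, with quantile normalization it was −0.10, and neither passed.

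Cd79b, a signalling chain of the B cell receptor, differed by −0.28 ± 0.07 (SE, 1.22-fold lower, limma adjusted p = 0.0046). With the slope divided out Cd79b was at −0.04, and with quantile normalization it turned to 0.12 with an adjusted p = 0.196. Its partner Cd79a differed by −0.11 with an adjusted p = 0.479. Nkg7, a granule protein of natural killer and cytotoxic T cells, was lower by 0.23 ± 0.08 (SE, limma adjusted p = 0.0193), and the granzyme gene Gzma differed by −0.29 with an adjusted p = 0.364. In untreated mice Nkg7 was lower by 0.35 ± 0.10 (SE, 1.28-fold, limma adjusted p = 0.0278), with group means of −1.73 ± 0.11 (SD, n = 5) in controls and −2.08 ± 0.20 (SD, n = 7) in MR-Cardio mice. That call of Nkg7 was lost in 10 of 36 alternatives, the slope among them.

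The neutrophil genes S100a8 and S100a9 encode the chains of calprotectin, and neither passed in a genotype comparison. S100a8 had log2 ratios of −8.03, −7.74, −8.49, −8.79 and −8.73 in untreated controls and −7.19, −7.41, −7.54, −7.60 and −8.77 in controls with aldosterone. Untreated MR-Cardio mice ran from −8.44 over a median of −8.26 to −5.50, and those with aldosterone from −8.45 over −8.09 to −7.42. Untreated MR-Cardio mouse 3 had the highest value by far, and its S100a9 ratio of −4.64 was likewise the highest of the 23. The genotype difference of S100a8 was 0.65 (95% interval −0.20 to 1.49) in untreated mice and −0.34 (−1.21 to 0.53) with aldosterone, and that of S100a9 was 0.13 (−0.50 to 0.76) and −0.47 (−1.13 to 0.18). The means over both, which average opposite signs, were 0.15 with an adjusted p = 0.725 for S100a8 and −0.17 with an adjusted p = 0.582 for S100a9.

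Aldosterone was compared with no treatment in controls and in MR-Cardio mice, the other comparisons the study names. In controls none of the 38 genes passed in limma, as did 0% of all genes, and none had an unadjusted p under 0.05, against 4.73% of all genes. The genes with the smallest p were Cd53 at 0.49 ± 0.26 (SE, 95% interval −0.04 to 1.02), Ms4a1 at −0.35 ± 0.20 (SE, −0.75 to 0.06) and Cd4 at −0.12 ± 0.07 (SE, −0.27 to 0.02). Adgre1 differed by 0.51 ± 0.30 (SE, 95% interval −0.12 to 1.13), Gzma by −0.52 ± 0.34 and S100a8 by 0.65 ± 0.44 (SE, 95% interval −0.26 to 1.56). The intervals leave room for differences of that size and do not show that aldosterone had no effect. The median log2 difference was 0.20 over the macrophage genes, 15 of 16 positive, and 0.15 over the 38 genes beside 0.01 over all genes.

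In MR-Cardio mice none of the 38 genes passed in limma, while 1.43% of all genes did, and none had an unadjusted p under 0.05, against 14.2% of all genes. C1qb differed by 0.40 ± 0.20 (SE, adjusted p = 0.363 in limma), and its levels were −1.07 ± 0.34 (SD, n = 7) without and −0.66 ± 0.45 (SD, n = 6) with aldosterone. Cd52 differed by 0.43 ± 0.21 (SE, adjusted p = 0.363), Cd68 by 0.45 ± 0.25 (SE, adjusted p = 0.44) and Adgre1 by 0.47 ± 0.26 (SE, adjusted p = 0.448). Of the lymphocyte and neutrophil genes, Cd3d differed by 0.31 (adjusted p = 0.544) and S100a9 by −0.34 ± 0.29 (SE, adjusted p = 0.653). All 16 macrophage genes and all 8 pan-leukocyte genes had a positive difference, with medians of 0.18 and 0.31 beside −0.02 over all genes. No gene of the 38 had groups free of overlap under aldosterone in either genotype, where 1.61% of all genes did in controls and 0.544% in MR-Cardio mice.

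Averaged over genotypes, the aldosterone difference again passed for none of the 38, while 0.895% of all genes passed. At an unadjusted p under 0.05 in limma it was positive for C1qb (0.38), Cd53 (0.42), Adgre1 (0.49) and Cd52 (0.33), against 12% of all genes in either direction. The difference between the genotypes in their aldosterone response passed for none of the 38 in limma, and for 0% of all genes. At an unadjusted p under 0.05 the counts were 0 of the 38 and 5.47% of all genes. The largest was that of S100a8 at −0.99 ± 0.58 (SE, 95% interval −2.20 to 0.22, adjusted p = 0.922), and that of Msr1 was 0.46 ± 0.46 (SE, adjusted p = 0.941). The genotype and aldosterone comparisons share mice, so their values are given side by side and not as separate evidence.

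**Figure D3:**
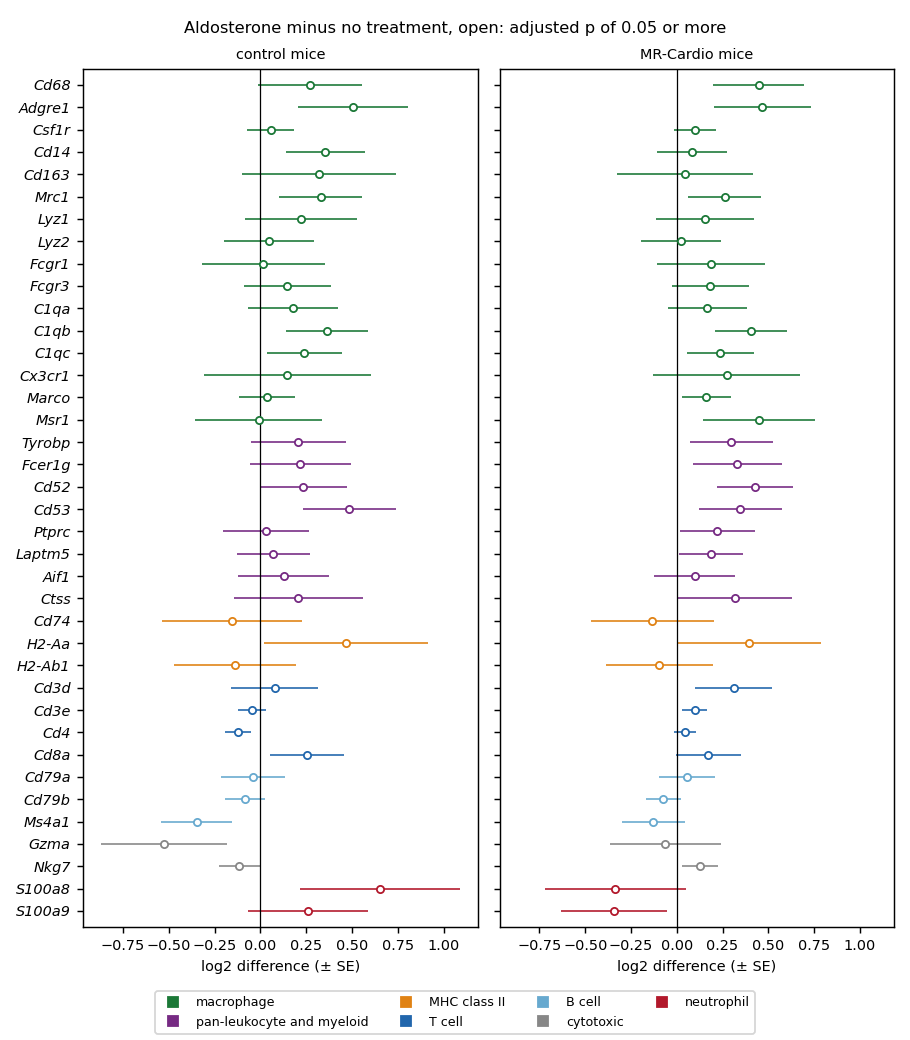
Log2 difference between aldosterone and no treatment (x axis, ± SE from limma) for the 38 genes (y axis, coloured by cell type list) in control and in MR-Cardio mice, where open points mark an adjusted p of 0.05 or more. All points are open, and the macrophage and pan-leukocyte genes lie at or to the right of 0 in both panels, apart from Msr1 just below 0 in controls.

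The spread between mice of one group was shared across genes. Untreated control mouse 2 had the highest ratio of its group for all 16 macrophage genes and all 8 pan-leukocyte genes, and control mouse 4 the lowest for 19 of these 24. Among MR-Cardio mice with aldosterone, mouse 1 was highest for 22 of the 24 and mouse 2 lowest for 19, and among untreated MR-Cardio mice, mouse 2 was lowest for 20. The mean log2 ratio over the 16 macrophage genes ran from −1.74 in mouse 4 to −0.61 in mouse 2 among untreated controls, a wider span than the differences between the group means of −1.26 ± 0.41, −1.06 ± 0.21, −0.91 ± 0.34 and −0.68 ± 0.42 (SD; n = 5, 5, 7 and 6, in the order used for Cd68). In MR-Cardio mice with aldosterone it ran from −1.19 in mouse 2 to 0.08 in mouse 1. That mouse 1 also had the highest fibroblast mean of its group at 3.42 and the lowest cardiomyocyte and endothelial means at 1.26 and 0.95, and their part in its leukocyte values was not tested.

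Single mice changed the counts, which are given here without the share of all genes called in each fit. Without untreated control mouse 2, the untreated comparison gave 7 higher and 3 lower genes of the 38 in place of 0 and 4. Without untreated MR-Cardio mouse 2 it gave 5 higher and 4 lower. In the aldosterone groups the count of 5 became 9 without MR-Cardio mouse 2, 3 without MR-Cardio mouse 1, 2 without control mouse 1, 3 without control mouse 3 and 3 without control mouse 4. As all groups share 1 estimate of the spread, it became 8 without untreated control mouse 2 or untreated MR-Cardio mouse 2.

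**Figure D4:**
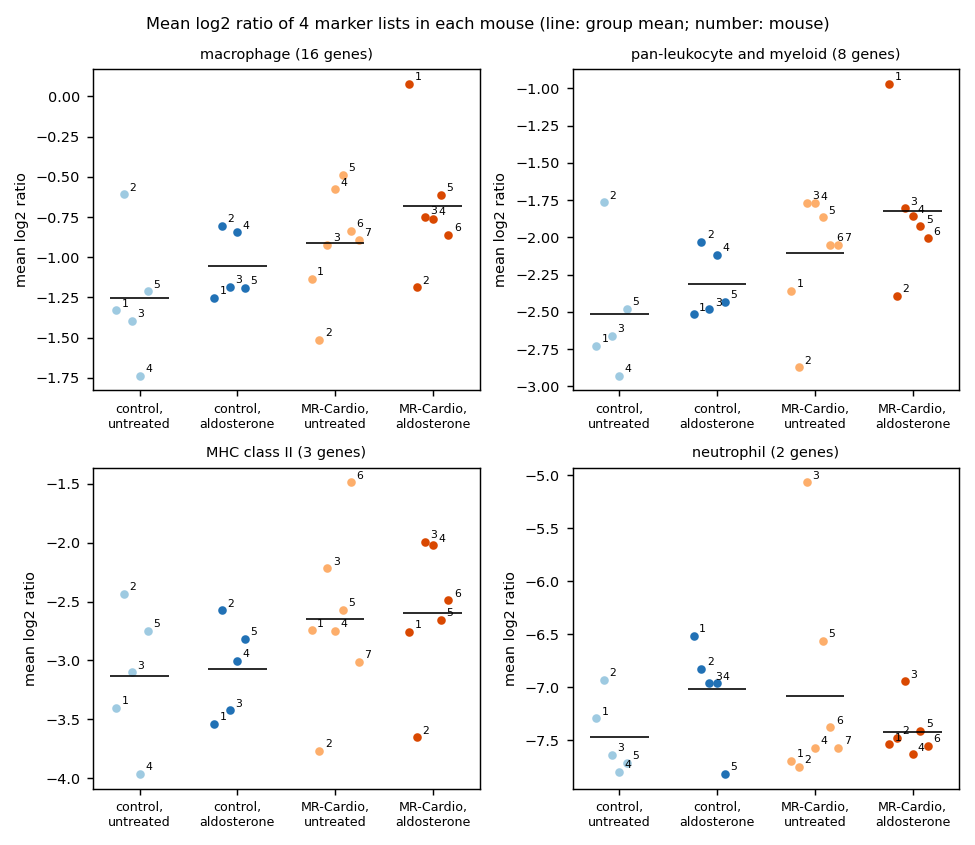
Mean log2 ratio (y axis) over the genes of the macrophage, pan-leukocyte, MHC class II and neutrophil lists for each mouse (points, numbered as in the labels) in the 4 groups (x axis). Control mouse 2 and MR-Cardio aldosterone mouse 1 are the highest of their groups in the macrophage and pan-leukocyte panels, and untreated MR-Cardio mouse 3 is far above the others in the neutrophil panel.

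Genes whose products work together, or that are neighbouring paralogs, were compared over the 23 mice after subtracting each group's mean. There were 9 pairs, with 100000 permutations within groups and adjustment over the pairs. The chains of C1q varied together: Pearson's r was 0.95 for C1qa with C1qb (Spearman's rho 0.93) and 0.98 for C1qb with C1qc (rho 0.96), each with a permutation p = 1e-05, the smallest they can give, and an adjusted p = 1.5e-05. So did Tyrobp with Fcer1g (r = 0.95, rho 0.92), Lyz1 with Lyz2 (r = 0.94, rho 0.93) and S100a8 with S100a9 (r = 0.96, rho 0.92), all with an adjusted permutation p = 1.5e-05 for r. As the signals of Lyz1 and Lyz2 may not be separate, their r cannot tell shared probe signal from genes that vary together. H2-Ab1 followed Cd74 with r = 0.98 and rho 0.99 (adjusted permutation p = 1.5e-05) and H2-Aa with r = 0.78 and rho 0.76 (adjusted permutation p = 9.0e-05). Without the 2 mice farthest from the median, r stayed at 0.81 or more in these 7 pairs. Such pairs share array and labelling, which were not separated from the mice.

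The lymphocyte receptor chains did not covary. Cd3d with Cd3e gave r = −0.04 and rho −0.02 (adjusted permutation p = 0.857 for r), and Cd79a with Cd79b r = 0.15 and rho 0.20 (adjusted permutation p = 0.483 for r). Without the 2 farthest mice r was −0.04 and 0.11. In the map of deviations, columns of one colour run through the macrophage and pan-leukocyte rows of single mice. Some go on into the lymphocyte rows: untreated control mouse 4 was also the lowest of its group for Cd3d, Cd8a, Cd79b, Ms4a1, Gzma and Nkg7, and MR-Cardio aldosterone mouse 2 for Cd3d, Cd8a, Gzma and Nkg7.

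**Figure D5:**
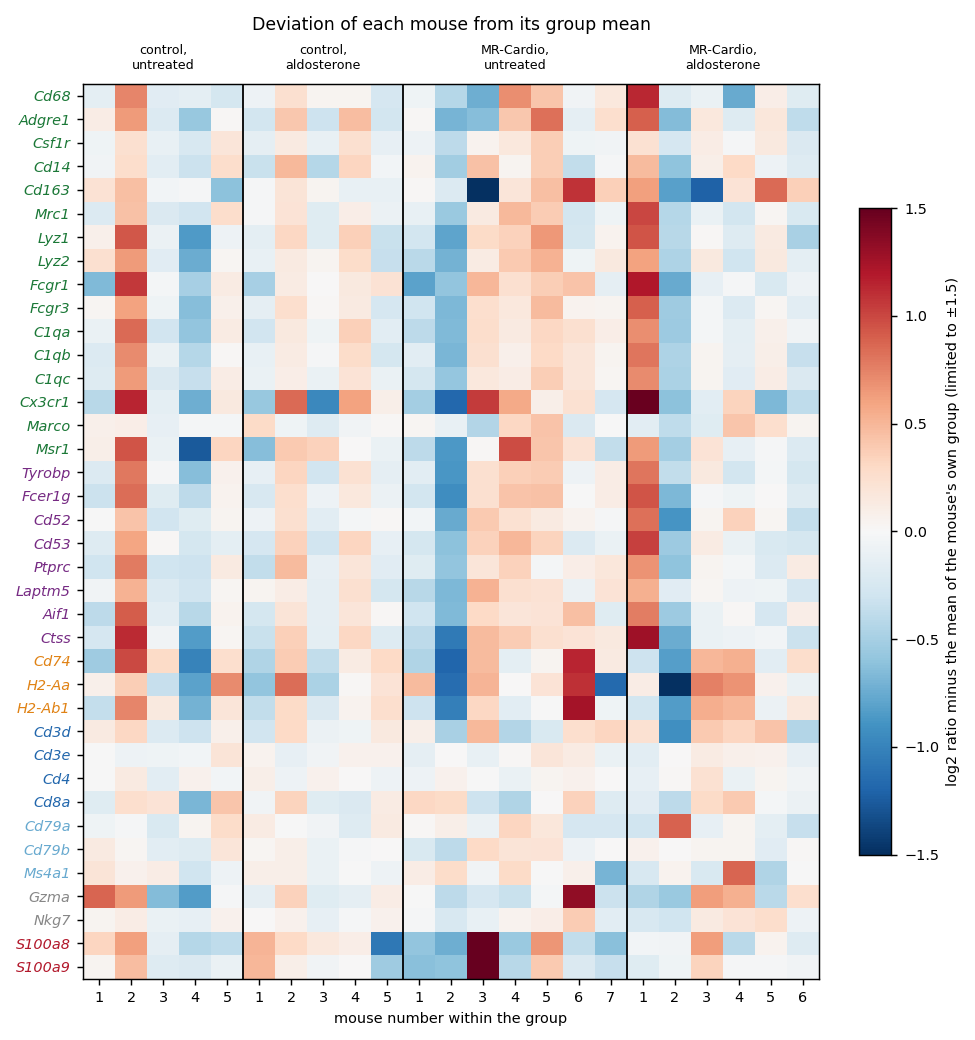
Deviation of each mouse (columns, by group) from its group mean log2 ratio for the 38 genes (rows, by cell type list), on a colour scale from −1.5 to 1.5. Control mouse 2 and MR-Cardio aldosterone mouse 1 are above their group means through nearly all macrophage and pan-leukocyte rows, control mouse 4 and both MR-Cardio mice numbered 2 are below, and the Cd3e and Cd79b rows are nearly flat.

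From a wider list of macrophage genes kept for context, 11 of 25 measured were higher and none lower in the mean genotype comparison, beside the 15.7% of all genes that were higher. The difference was negative for 3 of the 25, 2 of them at an unadjusted p under 0.05 in limma. This list and the Fc receptor and ITAM signalling list below were chosen with earlier results of these data known. Their counts are therefore not an independent test of the macrophage genes above. Ccr2, the chemokine receptor of recruited monocytes, was higher by 2.34 ± 0.42 (SE, 5.08-fold, limma adjusted p = 0.000166), from group means of −3.21 ± 1.26 (SD, n = 5) and −3.24 ± 1.04 (SD, n = 5) in controls to −1.19 ± 1.00 (SD, n = 7) and −0.57 ± 0.87 (SD, n = 6) in MR-Cardio mice. Lgals3, the galectin-3 gene, was higher by 1.15 ± 0.26 (SE, 2.23-fold), Itgax, the integrin CD11c, by 1.06 ± 0.24 (SE, 2.09-fold), and Gas6, the bridging ligand in uptake of dying cells, by 0.83 ± 0.08 (SE, 1.77-fold). In untreated mice alone 6 of the 25 were higher and none lower, Gas6, Ccr2, Pf4 and Lgals3 among them, beside 5.79% of all genes higher. Negative there were Clec4a2 (−0.58), Timd4 (−0.54) and Lyve1 (−0.11), none past the threshold. Of 17 Fc receptor and ITAM signalling genes 5 were higher, including the kinase Syk (0.67), and 1 was lower, the NADPH oxidase subunit Cybb (−0.62).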

How the data were processed

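Gene values came from the log2 ratios that the authors deposited, 1 column per mouse, heart (Cy5) over reference pool (Cy3). The submitters' processing notes name Agilent Feature Extraction 10.7.3.1. Nothing on background correction or normalization within arrays is given in the sources used here. Array medians lay between −0.03 and 0.09, arrays correlated at 0.855 to 0.960, and no further scaling was applied. The number of arrays limits the precision. The table holds no signal or background values.

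Of 39485 rows, 56 were control probes. Of the other 39429 probes 30625 had 1 gene symbol on the platform annotation, 0 had several and 8804 had none, and 30331 matched RefSeq by gene ID with 0 symbols updated. Probes of a gene were averaged to 21892 genes. The 38 genes had 50 probes, with 1 probe for 27 genes. No filter on low values was set, and 0 value columns were left unused.

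One linear model with a mean per group was fitted to all 23 arrays and all genes with limma 3.58.1 (R 4.3.3, lmFit and eBayes), with Benjamini-Hochberg adjustment over 21892 genes at a threshold of 0.05. The mean of the untreated and aldosterone comparisons, the aldosterone mean and the interaction are contrasts of that model. The scripts were tested on simulated data. Each array is 1 mouse. The genes and lists were chosen with earlier results of these data known. All 38 genes are reported, with values in every mouse or group for those past the threshold, for the 2 smallest p-values of a list and for subunit pairs, and from context lists at most 4 genes past the threshold. Alternatives were other scalings, array weights, a spike-in covariate, eBayes settings, filters, thresholds, probe choices, smaller fits, a replicate block and each mouse left out. Promoter windows are RefSeq's (GRCm38.p6).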

Additional observations from a re-analysis of the deposited data

Results flagged for a closer look

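Within groups, the highest or lowest mouse stood far from its neighbours in 16 of 180 sets of values by Dixon's 95% limit for a gap over the range. Chance flags about 1 in 20 groups. Several fell in mice already described. In untreated control mouse 2 the log2 ratio of Cd68 was −0.58, with the next mouse at −1.45. In MR-Cardio aldosterone mouse 1 Mrc1 was 1.72 (next 0.74), Laptm5 was −0.93 and Ctss was −0.74, each the highest of the group. In untreated MR-Cardio mouse 2 Tyrobp at −2.25 and Cd52 at −4.50 were the lowest.

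Lymphocyte genes were flagged in other mice. Cd3e was highest at −1.17 in untreated control mouse 5. Cd79a was highest at −1.89 in MR-Cardio aldosterone mouse 2, Cd79b lowest at −5.66 in aldosterone mouse 5 and Ms4a1 lowest at −7.34 in untreated MR-Cardio mouse 7. Gzma was highest at −2.52 in untreated MR-Cardio mouse 6 (next −3.86), which raised the mean of the cytotoxic list there to −2.11.

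Neutrophil genes were flagged in 3 mice. S100a8 was lowest at −8.77 in control aldosterone mouse 5, S100a9 was highest at −4.64 in untreated MR-Cardio mouse 3 (next −6.07) and at −6.47 in MR-Cardio aldosterone mouse 3, where the mean of the neutrophil list was also highest at −6.94. The cause of these values was not tested.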

How the results depend on the processing

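Counts of the 38 genes are given as higher and lower at the settings that changed them by over 1.5 times or shifted their split, and the cause was not tested. The share of all genes called at each setting is not given, so the counts alone do not set the 38 apart from other genes. The untreated genotype comparison (0 and 4) gave 2 and 2 with quantile normalization, 1 and 2 with the spike-in slope divided out, 7 and 4 (11 in all) with array weights, 0 with a filter on low mean ratios that leaves 7 of the 38 genes, 7 in all at a threshold of 0.1, 2 at 0.01, and 3 to 10 with 1 mouse left out. The aldosterone groups (3 and 2) gave 7 and 2 (9 in all) with the slope divided out, 2 and 2 with quantile normalization, 2 and 4 with only these groups fitted, 0 and 3 with the spike-in offset as covariate, 1 with the filter, 14 at 0.1, 2 at 0.01, and 2 to 9 with 1 mouse left out. The mean genotype comparison (14 and 6) gave 9 and 4 (13 in all) with the offset covariate, 19 and 3 with the slope divided out, 13 and 3 with quantile normalization, 4 with the filter, 9 at 0.01, 4 and 5 (9 in all) without the low-offset arrays, and 16 to 25 with 1 mouse left out. The aldosterone mean gave 1 without the low-offset arrays, and 0 at the other settings. The aldosterone comparisons by genotype and the interaction gave 0 at all settings and 0 with any mouse left out. Fits of only the groups compared apply to no contrast of all 4 groups.

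The difference turned sign for Cd79b in the mean genotype comparison with quantile normalization (0.12, adjusted p = 0.196 in limma), and for Slc4a1, the red cell anion exchanger, in the untreated one (0.00345, adjusted p = 0.988). Of the 29 calls of the 38 genes 6 were never lost where the gene was tested: those of Cd3e in all 3 genotype comparisons, and those of Mrc1, Msr1 and Cd3d in the mean one. Of 1029 recomputed values of these calls 895 kept the call. Some of these were fixed in advance: a threshold of 0.1 cannot lose a call. Taking the most variable probe leaves the values of a gene with 1 probe as they are.

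The labels do not say that sample numbers pair the mice. Deviations of equal numbers correlated at −0.16 to 0.28. The best match was the mouse of equal number for 3 of 6 in the aldosterone comparison of MR-Cardio mice. It was so for 1 of 5 in that of controls, and for 0 of 5 in each genotype comparison. With the number as a replicate block the counts were 3 (0 and 3) untreated, 4 (1 and 3) with aldosterone and 14 (8 and 6) for the mean.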

Other observations

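Other leukocyte lists were mixed in the mean genotype comparison, where 15.7% of all genes were higher and 19.3% lower. They too were chosen with earlier results of these data known. The difference was positive for 8 of 10 further MHC class II genes, 9 of 12 T cell genes and 5 of 9 B cell genes. It was positive for 5 of 8 natural killer, 3 of 12 neutrophil and 5 of 7 mast cell genes, beside 45.6% of all genes. Of the 10 MHC class II genes 1 was higher and 1 lower past the threshold. Among 12 further T cell genes Il7r, the interleukin-7 receptor, was higher by 1.87 ± 0.25 (SE, 3.65-fold) and the adaptor gene Trat1 by 1.24 ± 0.23 (SE, 2.36-fold), while the costimulatory receptor Cd28 was lower by 1.40 ± 0.18 on the log2 scale (SE, 2.63-fold), all past the threshold in limma. Among 9 further B cell genes 1 was higher, Cd37 (0.32), and 3 were lower, Cr2 (−0.42), Fcer2a (−0.55) and Cd22 (−0.21). Natural killer genes showed 3 higher of 8, with Klrd1, a lectin receptor chain, at 1.37 ± 0.29 (SE, 2.59-fold), and none lower. Of 12 neutrophil genes 5 were lower. Among them were the granule genes Ltf (−0.86), Mpo (−0.55) and Ngp (−0.44), and with the spike-in slope divided out these differences were −0.58, −0.31 and −0.22. With quantile normalization they were −0.38, −0.18 and −0.12, the last no longer past the threshold. Lcn2 alone was higher, at 2.42 ± 0.16 (SE, 5.34-fold). Of 7 mast cell genes the chymase Mcpt4 was higher by 0.71 ± 0.14 (SE, 1.63-fold).

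Among MR-Cardio mice, 8 of 9 proliferation genes were higher with aldosterone past the threshold in limma, beside 1.43% of all genes in either direction, with a median log2 difference of 1.38 and the cell cycle genes Bub1 at 2.03, Ccna2 at 1.46, Mki67 at 1.44 and Birc5 at 1.38. In controls the median was 0.83, and 0 of the 9 passed the threshold. At an unadjusted p under 0.05 in limma 8 of the 9 were higher, against 4.73% of all genes in either direction. The difference between the genotypes passed for 0 of the 9. The proliferation list too was chosen with earlier results of these data known. In the aldosterone comparison of MR-Cardio mice the leukocyte lists had no call apart from Lcn2, which was higher by 1.00 ± 0.21 (SE, 2.00-fold, limma adjusted p = 0.0154).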
